A study of Rattus norvegicus with 17 samples.

Results

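The 4 genes described here, Phox2a, Hand2, Gata2 and Gata3, encode transcription factors of the sympathoadrenal lineage, from which the chromaffin cells of the adrenal medulla and the sympathetic neurons arise. They were taken from an expression table of 14506 named rat genes as the rows whose probe annotation gave exactly 1 of these symbols, and each was read by 1 probe set. All 17 samples came from rats aged 8 months of the strain label Sprague-Dawley white eye/Wistar-Kyoto. The sample labels give every rat, control or treated, as p27Kip1 (Cdknb1) mutant and homozygous, whereas the study's design text calls the mutants heterozygous. p27Kip1 is an inhibitor of the cell cycle, and no sample without the mutation was analysed here. The treated rats received NVP-BEZ235, an inhibitor of phosphoinositide 3-kinase and mTOR, at 30 mg/kg (4 samples, 3 female and 1 male) or 20 mg/kg (6 samples, 4 female and 2 male). The controls received 20 mg/kg polyethylene glycol (PEG, 7 samples, 5 female and 2 male). The length of treatment and the origin of each sample from a separate animal are not stated in the labels, so a p-value here measures only how these samples spread, which may be technical.

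Chromaffin cells derive from the neural crest and make catecholamines. In mouse and chick, the homeodomain protein Phox2a, the bHLH protein Hand2 and the zinc finger proteins Gata2 and Gata3 act in a network that turns on the genes of catecholamine synthesis and keeps the precursors dividing and alive. Phox2a binds sequences with an ATTA core and activates the promoter of dopamine beta-hydroxylase. Hand2 binds CANNTG boxes, usually as a dimer with a broadly expressed bHLH partner. Gata2 and Gata3 bind GATA sequences. Gata2 also acts in endothelial, mast and blood-forming cells, and Gata3 also acts in T lymphocytes and innate lymphoid cells.

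The tissue label is pituitary adenoma in every sample, whereas the series title names pheochromocytoma, the tumour of chromaffin cells. Most of the 11 pituitary markers measured were low, and the mean of the 11 ranged from 4.11 to 4.75 in treated samples and from 4.14 to 4.90 in controls. Gh1 averaged 3.86 on the log2 scale, Fshb 4.06 and Pou1f1, which lay below the lower quartile of the array in 17 of 17 samples, 3.32. Exceptions were Prl (prolactin), which averaged 5.61 with a range from 4.02 to 9.16 and was above the array median in 11 of 17 samples, Pitx1 (13 of 17) and Pomc, which reached 7.86. Array medians lay between 4.95 and 5.11. Most adrenal medulla and cortex markers were high, with means of 12.29 for Th (tyrosine hydroxylase), 12.32 for Dbh (dopamine beta-hydroxylase), 12.11 for Star and 12.02 for Cyp11a1. Lower ones were the cortex marker Nr0b1 (4.97, above the array median in 6 of 17 samples) and the medulla genes Slc18a2 (6.15) and Ret (6.09). The low pituitary and high adrenal levels of most markers went against the tissue label, and the samples are called here by their treatment only. The numbers in the sample titles form 2 sets: numbers 1 to 4 hold the 30 mg/kg samples and controls 1 to 4, and numbers 5 to 10 hold the 20 mg/kg samples and controls 5 to 7. What the numbers stand for is not stated, but the 20 mg/kg samples had a median correlation of 0.983 with controls 5 to 7 and of 0.966 with controls 1 to 4. For the 30 mg/kg samples it was 0.947 with controls 5 to 7 and 0.955 with controls 1 to 4. Each dose is therefore compared below with all 7 controls and with the controls of its own number set. Dose and number set cannot be told apart in the comparison of the doses with each other.

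The promoters of Hand2 and Gata2, the 2 factors that fell at 30 mg/kg, are shown from 250 bases before to 50 bases after the RefSeq start site (build GRCr8). Capitals mark the letters the lineage's factors are known to bind: GATAA and ATTA on either strand (as TTATC and TAAT on the other), and CANNTG.
Hand2, chr16:37931439-37931738, minus strand: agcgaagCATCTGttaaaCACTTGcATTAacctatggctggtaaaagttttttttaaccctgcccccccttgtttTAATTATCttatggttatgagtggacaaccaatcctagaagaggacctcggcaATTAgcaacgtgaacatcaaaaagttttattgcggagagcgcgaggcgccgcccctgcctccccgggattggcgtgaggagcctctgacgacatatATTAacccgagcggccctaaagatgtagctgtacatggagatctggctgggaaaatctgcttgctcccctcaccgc
Gata2, chr4:122216031-122216330, plus strand: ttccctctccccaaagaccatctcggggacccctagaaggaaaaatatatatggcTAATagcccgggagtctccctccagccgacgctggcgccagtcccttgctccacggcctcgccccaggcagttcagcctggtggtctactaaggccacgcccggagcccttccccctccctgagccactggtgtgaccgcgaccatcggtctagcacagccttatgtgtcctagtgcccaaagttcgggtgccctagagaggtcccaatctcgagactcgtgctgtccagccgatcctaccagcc
The Hand2 window held 1 GATAA match, 2 CANNTG boxes and 5 ATTA matches, and 49.3% of its bases were G or C. The GATAA match, read as TTATC at position -172 from the start site, overlaps the ATTA match at -173, which in turn overlaps the TAAT at -175. The boxes are CATCTG at -243 and CACTTG at -232. The Gata2 window held 1 ATTA match, a TAAT at -195, and neither of the other motifs, with 61.3% G and C. Its start site lies 4780 bases from the 5′ edge of the annotated gene. Among all 27457 promoter windows of the same length, 26.1% held GATAA, 71.6% CANNTG and 59.7% ATTA. Phox2a had 1 GATAA and 1 CANNTG in a window of 73.0% G and C, and Gata3 had 1 CANNTG at 65.0%. GTAAACA, a FOXO-type site searched on both strands because FOXO factors act downstream of phosphoinositide 3-kinase, was in none of the 4 windows and in 3.76% of all windows. A match of letters is a description and not a measured site.

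All 4 factors were expressed above the array median in 17 of 17 samples. Gata3 (gene ID 85471, chr17:73544234-73575670, GRCr8) averaged 10.56 ± 0.48 (SD, n = 17), at the 98.4th percentile of the gene means. Hand2 (gene ID 64637, chr16:37928145-37931488) averaged 9.23 ± 0.81, at the 94.4th percentile. Both lay above the upper quartile of the array in every sample. Gata2 (gene ID 25159, chr4:122211501-122225058) averaged 7.54 ± 0.55 and was above that quartile in 16 of 17 samples. Phox2a (gene ID 116648, chr1:165590757-165595122) averaged 6.82 ± 0.39, was above it in 4 of 17, and stood at the 65.7th percentile. These are levels of single probe sets, so they place each gene within the array and do not rank the 4 transcripts by amount. The probe sets of the paralogues Gata2 and Gata3, and of Hand2 and Hand1, were used as annotated, and cross-hybridisation between them was not tested.

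Hand2 and Gata2 fell in the samples given 30 mg/kg, while Phox2a and Gata3 did not pass the test. On the log2 scale Hand2 fell by 1.71 and Gata2 fell by 1.02. No factor passed at 20 mg/kg. With both doses together, Gata2 alone passed. In these bulk samples fewer cells of a type and less RNA per cell cannot be told apart.

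Hand2 is the bHLH factor of the group and is needed in mouse for the noradrenergic program of sympathetic precursors. Its log2 values were 8.57, 7.96, 8.24 and 7.30 in the 4 samples at 30 mg/kg, against 9.01, 9.91, 10.12 and 9.52 in controls 1 to 4. Every sample at 30 mg/kg was below every one of these controls. The values at 20 mg/kg were 9.33, 9.46, 9.21, 9.59, 10.12 and 9.05, against 9.55, 10.05 and 9.96 in controls 5 to 7. These groups overlapped, with 4 of 6 treated samples below the lowest control and 1 above the highest. The mean was 8.02 ± 0.54 at 30 mg/kg (SD, n = 4), 9.46 ± 0.37 at 20 mg/kg (n = 6) and 9.73 ± 0.39 in all controls (n = 7).

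The change of Hand2 at 30 mg/kg against all controls was -1.71 ± 0.25 (SE; 95% interval -2.24 to -1.19; limma, adjusted p = 0.000751 over 14506 genes). It ranked 51st of all genes by p. Within numbers 1 to 4 the difference was -1.62, so that the treated level was 0.325 times the control level, and the exact permutation test gave p = 0.0286 two-sided, the smallest that 4 against 4 samples allow. Without 30 mg/kg sample 4, the only male of that dose and the lowest value, the difference within the set was -1.38 and the exact permutation p was 0.0571 (smallest possible 0.0286), while limma without that sample gave -1.39 and passed (adjusted p = 0.00582). The change at 20 mg/kg was -0.27 ± 0.22 (95% interval -0.74 to 0.20; limma, adjusted p = 0.565). Within numbers 5 to 10 it was -0.39, with an exact p of 0.179.

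Gata2 is a zinc finger factor that acts in the sympathetic precursors of mouse and chick. It had log2 values of 6.95, 7.39, 6.38 and 7.19 at 30 mg/kg, against 8.07, 7.86, 8.81 and 7.97 in controls 1 to 4. No value at 30 mg/kg reached the lowest of these controls. The values at 20 mg/kg were 7.71, 7.27, 7.34, 7.77, 7.19 and 7.02, against 7.70, 7.46 and 8.05 in controls 5 to 7. Here 4 of 6 treated samples were below the lowest control and the other two were within the control range. The mean was 6.98 ± 0.43 at 30 mg/kg (SD, n = 4), 7.38 ± 0.30 at 20 mg/kg (n = 6) and 7.99 ± 0.42 in all controls (n = 7).

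The change of Gata2 at 30 mg/kg was -1.02 ± 0.22 (95% interval -1.48 to -0.56; limma, adjusted p = 0.00943). Within numbers 1 to 4 it was -1.20, a treated level of 0.435 times control (exact permutation p = 0.0286, the smallest possible). With 30 mg/kg samples 3 and 4 both left out, a setting chosen after the data were seen, the change was -0.93 and did not pass (limma, adjusted p = 0.0930). The change of Hand2 in that setting was -1.39 and passed (adjusted p = 0.0284). Gata2 at 20 mg/kg changed by -0.60 ± 0.20 (95% interval -1.01 to -0.18; limma, unadjusted p = 0.00724, adjusted p = 0.127), and within numbers 5 to 10 the difference was -0.36 (exact p = 0.131). With both doses together it was -0.77 ± 0.19 with an adjusted p of 0.0484, close to the threshold. Leaving out 1 sample ended that call for 14 of the 17 samples, all but control 5 and 20 mg/kg samples 5 and 8, with adjusted p between 0.0416 and 0.128 over the 17 fits.

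Phox2a, which activates the genes of noradrenaline synthesis, had log2 values of 6.91, 6.50, 7.20 and 6.74 at 30 mg/kg, against 6.58, 7.49, 7.39 and 7.32 in controls 1 to 4. The ranges overlapped, with the lowest control among the lowest values of the set. It had 6.38, 6.65, 6.46, 6.79, 6.96 and 6.01 at 20 mg/kg, against 6.77, 6.87 and 6.99 in controls 5 to 7, and 4 of 6 treated samples were below the lowest control. The mean was 6.84 ± 0.30 at 30 mg/kg (SD, n = 4), 6.54 ± 0.34 at 20 mg/kg (n = 6) and 7.06 ± 0.35 in controls (n = 7). The change at 30 mg/kg was -0.22 ± 0.20 (95% interval -0.64 to 0.19; limma, adjusted p = 0.545). For 20 mg/kg it was -0.51 ± 0.18 (95% interval -0.88 to -0.14; unadjusted p = 0.00987, adjusted p = 0.145). Within the number sets the differences were -0.36 (exact p = 0.229) and -0.33 (exact p = 0.155).

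Gata3, the zinc finger factor that in mouse is needed for the survival of sympathoadrenal cells, had the highest place on the array of the group. Its log2 values were 10.98, 10.05, 9.46 and 10.54 at 30 mg/kg, against 10.55, 11.18, 11.39 and 11.08 in controls 1 to 4. At 30 mg/kg 3 of 4 samples were below the lowest control and sample 1 was within the control range. Gata3 had 10.62, 10.69, 10.59, 11.05, 10.37 and 10.10 at 20 mg/kg, against 10.37, 10.19 and 10.31 in controls 5 to 7, and 4 of 6 treated samples were above the highest control. The means were 10.26 ± 0.65 at 30 mg/kg (SD, n = 4), 10.57 ± 0.32 at 20 mg/kg (n = 6) and 10.72 ± 0.48 in controls (n = 7). The control mean itself differed between the sets, at 11.05 ± 0.36 in controls 1 to 4 and 10.29 ± 0.09 in controls 5 to 7. Controls 1 to 4 were all female, whereas controls 6 and 7 were male, so number set and sex are partly mixed in these means. The change was -0.48 ± 0.26 at 30 mg/kg (95% interval -1.02 to 0.06; limma, adjusted p = 0.274) and -0.14 ± 0.23 at 20 mg/kg (-0.62 to 0.35; adjusted p = 0.797). Within the sets it was -0.79 at 30 mg/kg (exact p = 0.0571) and 0.28 at 20 mg/kg (exact p = 0.214).

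**Figure D1:**
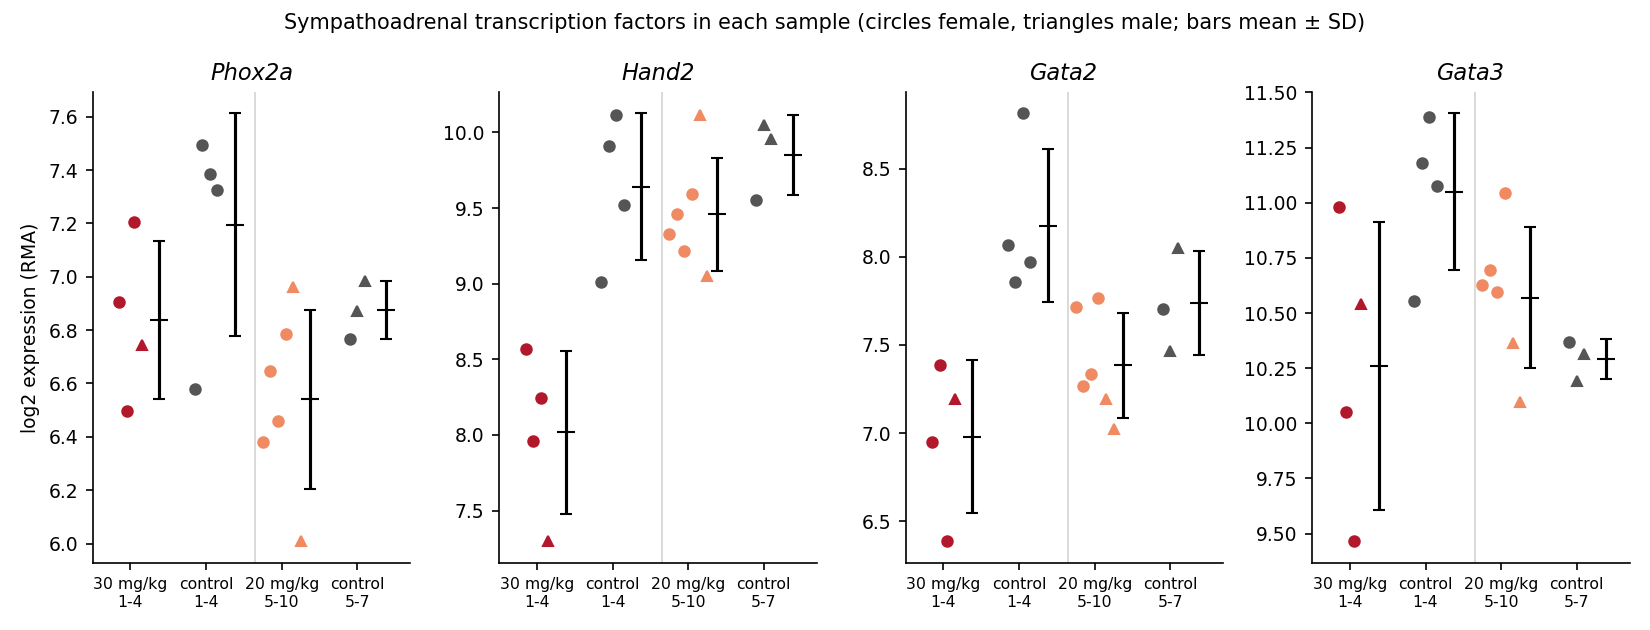
Expression (log2, RMA) of the 4 factors in each of the 17 samples, with each dose left of the controls of its own number set; circles are female, triangles male, and bars show mean ± SD. For Hand2 and Gata2 all 4 samples at 30 mg/kg lie below all 7 controls, and the axes of the 4 panels differ and do not start at 0.

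Over the group, 2 of 4 factors fell at 30 mg/kg, where 4.89% of all genes were called lower. The median change of the 4 was -0.75, beside 0.01 over all genes. The 4 samples at 30 mg/kg lay below all 7 controls for Hand2 and Gata2, a pattern found in 2.01% of genes. Against controls 1 to 4 alone the pattern held for the same 2 factors and for 3.52% of genes. In the samples at 20 mg/kg limma called 0 of 4 factors, where 0.524% of genes were called lower. At an unadjusted p below 0.05 there were 2 of 4 (Phox2a and Gata2), beside 17.4% of all genes. The median change was -0.39 beside -0.01 over all genes. For no factor did the 6 samples at 20 mg/kg separate from all controls (0.448% of genes lower) or from controls 5 to 7 (2.90% of genes lower). Both doses together gave 1 of 4 lower, where 0.965% of genes were called lower and 1.48% in either direction. Both doses were set against the same 7 controls, so these counts are not independent of each other.

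With the number set as a term in the fit, 2 of 4 factors were again lower at 30 mg/kg, where 1.52% of genes were called lower. The change was -1.61 ± 0.29 for Hand2 (limma, adjusted p = 0.00923) and -1.17 ± 0.25 for Gata2 (adjusted p = 0.0207). Gata3 changed by -0.75 ± 0.27 (adjusted p = 0.152) and Phox2a by -0.35 ± 0.23 (adjusted p = 0.462). At 20 mg/kg limma with this term called 0 of 4 factors, at adjusted p between 0.705 and 0.890 and with 0 of 4 at an unadjusted p below 0.05, where 0.338% of genes were called lower. With both doses together and the number set as a term, Hand2 (-1.02 ± 0.24, adjusted p = 0.0218) and Gata2 (-0.79 ± 0.19, adjusted p = 0.0244) passed, where 2.75% of genes were called lower. Hand2 had not passed without the term, at -0.85 ± 0.33 and an adjusted p of 0.227.

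**Figure D2:**
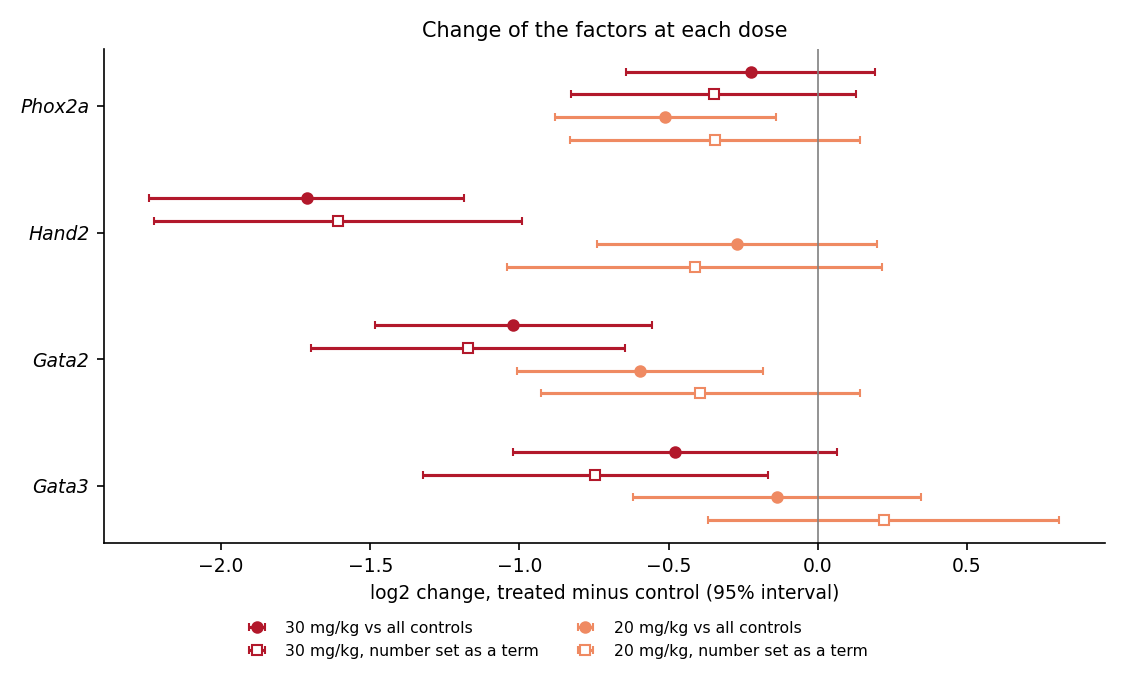
Log2 change (treated minus control, 95% interval) of each factor at 30 mg/kg and at 20 mg/kg, against all controls (filled circles) and with the number set as a term (open squares). The intervals of Hand2 and Gata2 at 30 mg/kg lie below 0 in both fits, and the sign of Gata3 at 20 mg/kg differs between them.

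At 30 mg/kg against 20 mg/kg, 1 of 4 factors was lower, where 8.16% of genes were called lower. Hand2 changed by -1.44 ± 0.26 (95% interval -1.99 to -0.90, limma, adjusted p = 0.00483). Gata2 changed by -0.42 ± 0.23 (adjusted p = 0.227), Gata3 by -0.34 ± 0.27 (adjusted p = 0.415) and Phox2a by 0.29 ± 0.20 (adjusted p = 0.371). The change within numbers 1 to 4 minus the change within numbers 5 to 10 uses separate controls for the doses. It was -1.19 ± 0.43 for Hand2 (limma, adjusted p = 0.671), -0.97 ± 0.40 for Gata3 (0.721), -0.78 ± 0.36 for Gata2 (0.736) and -0.00 ± 0.33 for Phox2a (adjusted p = 1). By this test limma called 0 of 14506 genes (0.0%), with 971 (6.69%) at an unadjusted p below 0.05, among them Hand2, Gata3 and Gata2. A difference between doses was therefore called for Hand2 only in the direct comparison of the doses.

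The sexes were compared in the fit that joins both doses. limma called 0 of 4 factors, none of them at an unadjusted p below 0.05, where 0.241% of genes were called in either direction. The change, male minus female, was between -0.36 ± 0.23 (Gata3, adjusted p = 0.449) and 0.10 ± 0.35 (Hand2, adjusted p = 0.910). Gata3 averaged 10.30 ± 0.17 in male samples (SD, n = 5) and 10.67 ± 0.53 in female samples (n = 12). Its values in males, from 10.10 to 10.54, lay inside the female range of 9.46 to 11.39.

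The 4 factors were then followed from sample to sample, after the mean of each of the 4 subgroups (30 mg/kg, controls 1 to 4, 20 mg/kg, controls 5 to 7) was taken off. Of the 6 pairs, Phox2a and Hand2 varied together, with a Pearson r of 0.75 (n = 17, permutation p = 0.00332, adjusted p = 0.0199) and a Spearman rho of 0.78 (permutation p = 0.0008, adjusted p = 0.0048). Without the 2 samples farthest from the median, r was 0.64. Here and below, the farthest samples were those of the factor named first in the pair. Gata2 and Gata3 had an r of 0.55 (permutation p = 0.0617, adjusted p = 0.185) and a rho of 0.48 (permutation p = 0.101, adjusted p = 0.302), and r was 0.33 without the 2 farthest samples. The pairs that join a homeodomain or bHLH factor with a GATA factor had r between -0.08 and 0.29, with adjusted permutation p of 0.656 or more. Without the 2 farthest samples their r was -0.43 (Phox2a and Gata2), -0.14 (Phox2a and Gata3), 0.19 (Hand2 and Gata2) and 0.54 (Hand2 and Gata3). Without the subgroup means taken off, r was 0.32 for Phox2a and Hand2, 0.66 for Gata2 and Gata3, 0.55 for Hand2 and Gata2, and between 0.32 and 0.38 for the other pairs. The genes of one sample share its RNA quality and cell composition.

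**Figure D3:**
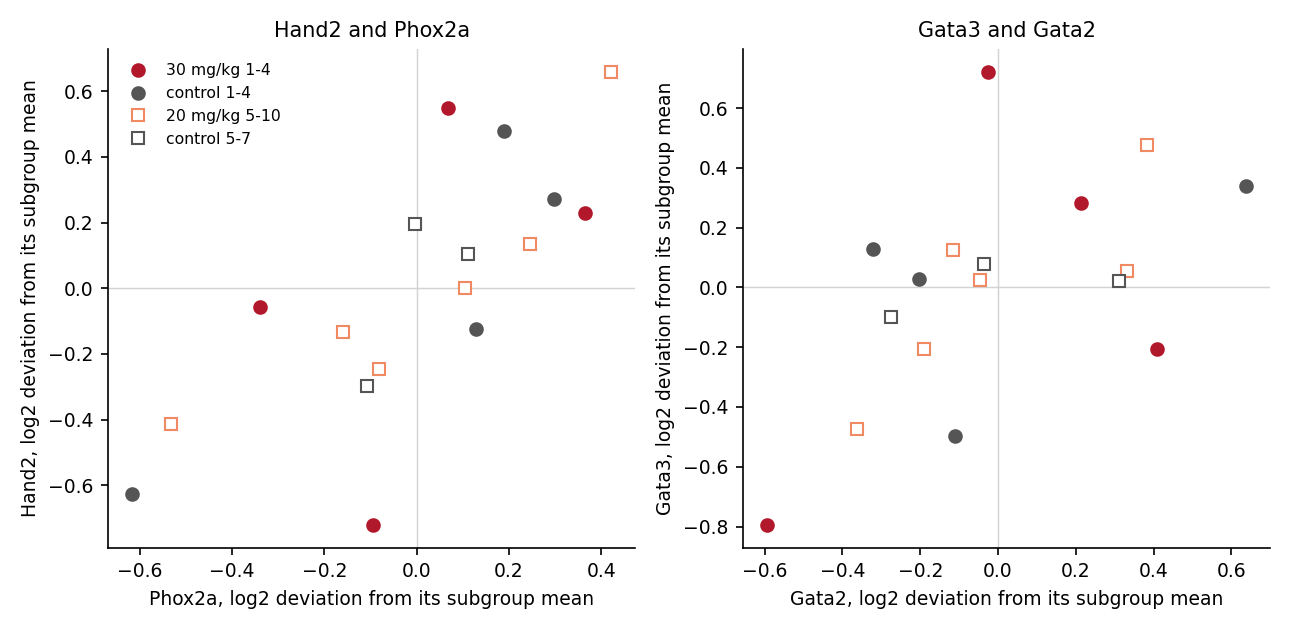
Deviation of each sample from the mean of its subgroup (log2) for Hand2 against Phox2a and for Gata3 against Gata2, coloured by subgroup (n = 17). Samples high in Phox2a are mostly high in Hand2 (r = 0.75), and the points of the GATA pair are more scattered (r = 0.55).

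The genes whose deviations were most like each factor's, among 7248 genes above the median gene, are given as a description over the 17 samples. For Hand2 they were Elavl4 (r = 0.93, a neuronal RNA-binding protein), Dbn1 (0.90, an actin-binding protein of neurons) and Pkig (0.89, an inhibitor of protein kinase A), and 32 genes had r of at least 0.8. For Gata3 they were Dpysl5 (0.92), Hmgn2 (0.89, a nucleosome-binding protein) and Adk (0.89, adenosine kinase), with 40 genes at that level. For Phox2a they were Dctn6 (0.91, a dynactin subunit), Plcxd3 (0.82) and Cep20 (0.82), with 10 genes. Gata2 had only 1 gene at that level, Gsn (0.83, the actin-severing protein gelsolin), followed by Dbp (0.79, a transcription factor of the circadian clock) and Abhd10 (0.77). Of these 12 genes, Dctn6, Plcxd3, Pkig, Dbp and Hmgn2 were lower at 30 mg/kg, where 4.89% of all genes were called lower. The 12 were picked from these same samples and only among genes above the median gene, so that share is not a like comparison. The fall of these genes was not tested as a set. Dctn6, Plcxd3, Pkig, Dbp and Hmgn2 fell by 0.48 to 1.31 on the log2 scale (limma, adjusted p between 0.0051 and 0.0391).

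The other factors of the lineage were a list of which 12 genes were analysed here. Of the 12, 0 passed limma with both doses together, with 1 at an unadjusted p below 0.05 (Tfap2b), beside 14.4% of all genes. At 30 mg/kg 1 rose and 0 fell, where 3.66% of all genes were called higher and 4.89% lower, and 5 were at an unadjusted p below 0.05, beside 23.8% of all genes. The median change at 30 mg/kg was -0.14. The gene that rose was Egr1, an immediate early factor, with 10.56 ± 0.74 at 30 mg/kg (SD, n = 4) and 8.15 ± 1.24 in controls (n = 7), a change of 2.40 ± 0.64 (limma, adjusted p = 0.0271). With the number set as a term it was 1.75 and did not pass (adjusted p = 0.181). Isl1 is the LIM homeodomain factor that in mouse acts with Hand2 and Gata3. It had 6.96 ± 1.01 at 30 mg/kg, 8.29 ± 0.46 at 20 mg/kg (n = 6) and 8.13 ± 0.65 in controls. Its adjusted p was 0.0747 at 30 mg/kg against control (limma). At 30 against 20 mg/kg 2 of the 12 were lower, where 8.16% of all genes were called lower. They were Isl1 (limma, adjusted p = 0.0436) and Lmo1 (-0.58 ± 0.14, adjusted p = 0.0181). Dose and number set cannot be told apart in that comparison. Hand1, the paralogue of Hand2, had 8.06 ± 0.50 at 30 mg/kg and 8.54 ± 0.61 in controls (-0.49 ± 0.28, adjusted p = 0.306). Tfap2b, an AP-2 factor of the neural crest, changed by -0.74 ± 0.23 with both doses together (adjusted p = 0.125).

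Genes of catecholamine synthesis, storage and uptake, which include targets of the 4 factors, moved in both directions at 30 mg/kg. Of 14 measured of 15 listed (Pnmt was not analysed here), 4 fell and 2 rose, where 4.89% of all genes were called lower and 3.66% higher. The median change was -0.12, beside 0.01 over all genes. Slc6a2, the noradrenaline transporter, had 6.94 ± 0.53 at 30 mg/kg (SD, n = 4), 8.23 ± 0.51 at 20 mg/kg (n = 6) and 9.27 ± 0.44 in controls (n = 7). Its change was -2.33 ± 0.29 at 30 mg/kg (limma, adjusted p = 0.000226), -1.04 ± 0.25 at 20 mg/kg (adjusted p = 0.0535) and -1.56 ± 0.32 with both doses together (adjusted p = 0.0246), the only gene of the list to pass there. Ddc, the decarboxylase that makes dopamine, fell by 1.95 ± 0.31 (adjusted p = 0.00132). Cyb561, the cytochrome of the catecholamine granule, fell by 1.61 ± 0.27 (adjusted p = 0.0022). Chrna3, a subunit of the nicotinic receptor through which nerves stimulate chromaffin cells, fell by 1.54 ± 0.27 (adjusted p = 0.0025). Npy, a neuropeptide stored with catecholamines, rose by 1.48 ± 0.24 (adjusted p = 0.00145), and Gch1, which makes the cofactor of tyrosine hydroxylase, by 0.99 ± 0.24 (adjusted p = 0.0179). Th and Dbh, known targets of the lineage factors, changed by 0.43 ± 0.15 (adjusted p = 0.0748) and 0.31 ± 0.15 (adjusted p = 0.215), and did not pass. With the number set as a term the 4 falls passed, where 1.52% of all genes were called lower. The rise of Npy passed in that fit, and the rise of Gch1 did not (limma, adjusted p = 0.0907). For the 20 mg/kg samples limma called 0 of the 14, with 3 at an unadjusted p below 0.05 (17.4% of all genes).

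**Figure D4:**
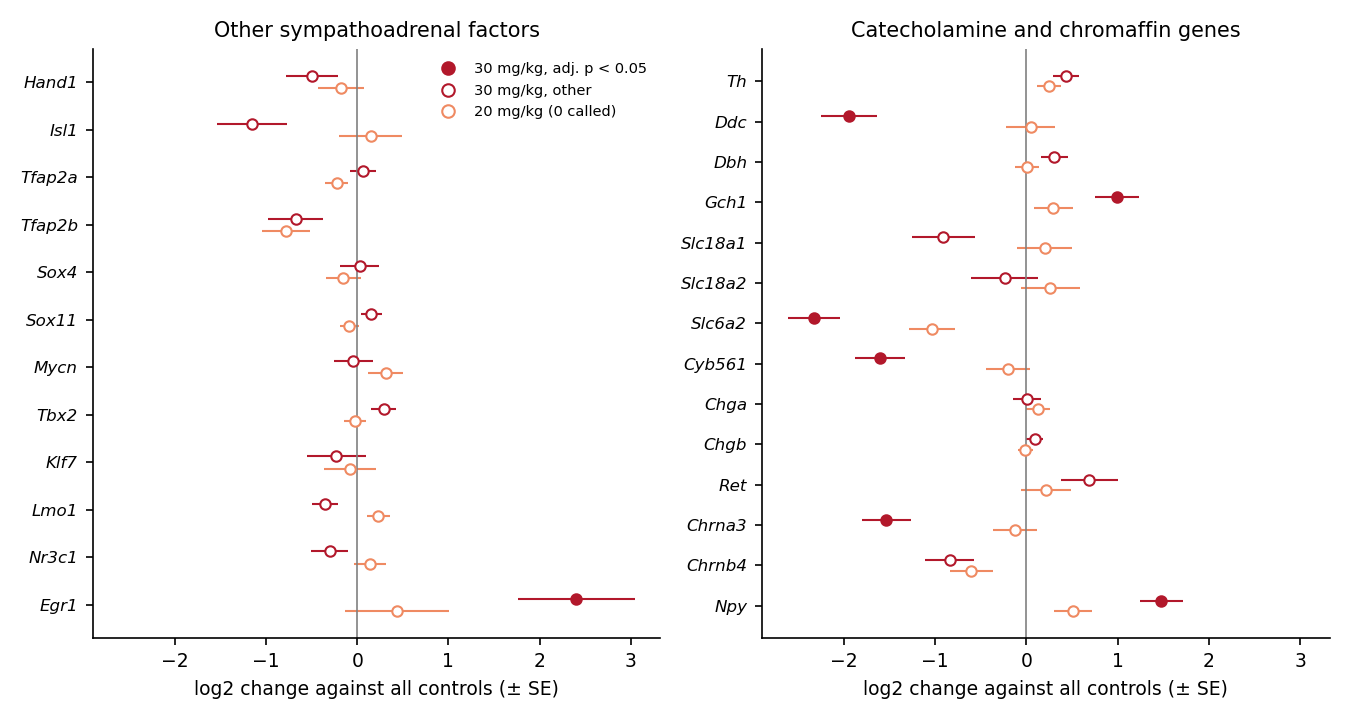
Log2 change against all controls (± SE) at 30 mg/kg (dark red) and at 20 mg/kg (orange) of the 12 other sympathoadrenal factors and the 14 catecholamine and chromaffin genes; filled points passed at an adjusted p below 0.05. In the left panel Egr1 passed, in the right panel 4 genes passed below 0 and 2 above it.

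The partners of the 4 factors were mostly below the threshold. Of 9 other GATA proteins and cofactors, limma called 0 with both doses together (1 of 9 at an unadjusted p below 0.05, beside 14.4% of all genes). At 30 mg/kg limma called 1 of 9, where 4.89% of all genes were called lower and 3.66% higher. Lmo2, a bridging protein of GATA complexes, fell by 0.61 ± 0.14 (adjusted p = 0.013; with the number set as a term 0.0907). Gata1 and Gata4 were above the array median in 0 of 17 samples and Gata5 in 1, so Gata2, Gata3 and Gata6 (mean 6.67) were the members of the family with a level above the median in most samples. Of 8 bHLH partners and Id proteins, limma called 0 at 30 mg/kg and 0 at 20 mg/kg, with 3 of 8 at an unadjusted p below 0.05 at 30 mg/kg (23.8% of all genes) and 1 of 8 at 20 mg/kg (17.4% of all genes). The largest absolute changes at 30 mg/kg were those of Id1 (0.57 ± 0.22, adjusted p = 0.115) and Id3 (0.53 ± 0.20, adjusted p = 0.113), inhibitors of bHLH dimers.

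Markers of other cell types that use these factors were read beside them, and T lymphocyte, erythroid and endothelial genes passed in part. The mean log2 level of 8 T lymphocyte and innate lymphoid markers ranged from 3.78 to 3.99 in the treated samples of both doses and from 4.19 to 4.62 in controls. Of the 8, 3 fell with both doses together (Il7r changed by -0.999, Cd2 by -0.49 and Cd3d by -0.99), where 0.965% of all genes were called lower. These markers were dim: Cd2 and Lck were above the array median in 0 of 17 samples, Il7r in 1 and Cd3d in 4. Il7r was below the lower quartile of the array in 6 of 17 samples. The mean of 4 erythroid genes was 5.12 to 6.70 at 30 mg/kg, 5.42 to 6.48 at 20 mg/kg and 6.49 to 7.84 in controls. With both doses together Hbb changed by -2.40 and Hba-a3 by -1.47 (limma, adjusted p = 0.0301 and 0.031). Alas2 did not pass (-0.45 ± 0.20, limma adjusted p = 0.291), and Klf1 went the other way without passing (0.09 ± 0.11, adjusted p = 0.816). At 30 against 20 mg/kg Hbb was lower (-1.86, limma adjusted p = 0.0298) and Klf1 higher (0.40, adjusted p = 0.0336). Most endothelial markers went the other way at 30 mg/kg: the mean of 11 was 7.03 to 7.13, against 6.32 to 6.92 in controls. Erg, Sox18, Cdh5 and Emcn rose, where 3.66% of all genes were called higher. Of these markers Erg (1.14 ± 0.22, limma adjusted p = 0.00424) also passed with the number set as a term. Cldn5 (-0.27 ± 0.12, limma adjusted p = 0.179) and Sox17 (-0.0039 ± 0.098) did not rise. Of 7 mast cell markers limma called 0 at either dose, with 1 of 7 at an unadjusted p below 0.05 at each. The share of all genes at that unadjusted p was 23.8% at 30 mg/kg and 17.4% at 20 mg/kg. Kit, the receptor of mast cells that other cells also carry, averaged 6.01 at 30 mg/kg, 5.52 at 20 mg/kg and 5.38 in controls, and Cpa3 and Fcer1a lay below the lower quartile of the array in 17 of 17 samples. The mean of 14 chromaffin genes ranged from 9.38 to 9.94 at 30 mg/kg, 9.72 to 10.43 at 20 mg/kg and 9.74 to 10.34 in controls. The mean of 9 adrenal cortex genes ranged from 10.11 to 10.84 at 30 mg/kg, 9.70 to 10.38 at 20 mg/kg and 10.11 to 11.10 in controls. The part of these cell types in the values of Hand2, Gata2 and Gata3 was not tested.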

How the data were processed

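Per the labels' protocols, RNA was isolated on columns with DNase, amplified over the whole transcriptome and biotinylated. The deposited values are log2 expression; the submitters' processing notes name RMA and Affymetrix Expression Console 1.3.0.187. The values (2.21 to 13.71) were used as deposited. The genome build behind the probe sets is not given in the sources used here. Of 29214 probe sets, 15310 had 1 gene symbol, and the probe set with the highest mean was taken for each of 14506 genes. Signal over background, and the number of arrays, limit the precision; array lower quartiles lay between 3.65 and 3.91. No arrays held identical values (highest correlation 0.991).

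limma 3.58.1 (R 4.3.3) fitted treatment and sex, or the 3 dose groups and sex, to all genes, two-sided, with Benjamini-Hochberg adjustment and a threshold of 0.05. Single factors were compared within number sets by exact permutation over all splits, which took no account of sex. Correlations were tested by 100000 permutations within subgroups, with ranks and adjustment from scipy 1.17.1. The fits were tested on simulated data. Promoters came from RefSeq (GRCr8), and 4 of 4 factors matched. The 11 gene lists (112 genes, 99 measured: sympathoadrenal factors, catecholamine and chromaffin genes, GATA family and cofactors, bHLH partners, and pituitary, adrenal cortex, glial, endothelial, mast cell, T lymphocyte and erythroid markers) and the 4 factors were chosen with earlier results of these data known. The genes named were the 4 factors, the 3 most correlated genes of each, and from each of the 4 lineage lists (factors, catecholamine genes, GATA family, bHLH partners) the genes passing with both doses together and the 2 with the largest change there. Any sympathoadrenal factor could be named, and marker genes and others were named after their values were seen. limma called 0 pituitary and 0 glial genes at 30 mg/kg and at 20 mg/kg (unadjusted p below 0.05 for 2 and 3 pituitary and 0 glial genes). Over all genes the share at that unadjusted p was 23.8% at 30 mg/kg and 17.4% at 20 mg/kg. Of the adrenal cortex list Mc2r fell at 20 mg/kg (-1.47, limma adjusted p = 0.0167), where 0.524% of all genes were called lower. Alternatives covered the sex term, the number set, normalization, dim probe sets, variance settings, array weights, females alone and left-out samples.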

Additional observations from a re-analysis of the deposited data

Results flagged for a closer look

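The change of Hand2 at 30 mg/kg against 20 mg/kg, -1.44 on the log2 scale (limma, adjusted p = 0.00483), stands out because the 2 doses differed by a test of the difference itself. Hand2 averaged 8.02 ± 0.54 at 30 mg/kg (SD, n = 4) and 9.46 ± 0.37 at 20 mg/kg (n = 6), and the difference of the within-set changes, which share no control, was -1.19 (adjusted p = 0.671). Dose and number set cannot be told apart in the first of these comparisons. In the second, each dose has controls of its own set, but each dose was given only within its own set. A response that differed between the sets would therefore look the same as a difference between doses.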

How the results depend on the processing

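At 30 mg/kg against control, Hand2 kept its direction and passed in 17 of 17 fits with 1 sample left out (-1.90 to -1.39) and in 11 of 12 other settings, and Gata2 in 17 of 17 (-1.19 to -0.80) and 10 of 12. Each factor had 1 probe set. The settings for several probe sets, dim probe sets and variances therefore left the size of its change as it was and could alter only its test. Whether the title numbers pair the samples is not known. Deviations of same-numbered samples from their group means correlated between -0.18 and 0.08, and from their subgroup means between -0.29 and 0.23. Differently numbered samples were not compared in this way, so these values cannot decide it. With the replicate block on those shared numbers, 30 mg/kg gave 72 genes in place of 1240, Hand2 -1.57 (adjusted p = 0.0864) and Gata2 -1.33 (0.135). The same block gave 0 genes in place of 171 at 20 mg/kg, where Gata2 was 0.042 and Gata3 0.42, and with both doses together Hand2 passed (-1.25, 0.0404), Gata2 did not (-0.85, 0.137), and the difference of within-set changes of Phox2a was 0.17. With the number set as a term the counts were 712 (both doses, 215 without it), 52 (20 mg/kg), 437 (30 mg/kg), 0 (30 against 20 mg/kg, 1752 without it) and 128 (male against female, 35 without it). In that fit Hand2 was -1.02 with both doses together, -1.19 at 30 against 20 mg/kg and -0.29 for male against female, Gata3 was 0.22 at 20 mg/kg, and Phox2a was -0.0031 at 30 against 20 mg/kg. For both doses together the count was 100 without sex, 424 with array weights and 12 in females, and Gata2 did not pass without sex (-0.77, 0.0582), with trended and robust variances (-0.77, 0.0513), in females (-0.82, 0.252) or without 30 mg/kg samples 3 and 4 (-0.67, 0.0607). At 20 mg/kg the count was 55 without sex, 113 after quantile normalization, 333 with all probe sets, 577 with array weights, where Gata2 passed at -0.65 (0.0495), and 2 in females. In females 251 genes passed at 30 mg/kg and 405 at 30 against 20 mg/kg. Without 30 mg/kg samples 3 and 4, added after the data were seen, 155 genes passed at 30 mg/kg, where Gata2 was -0.93, 51 at 30 against 20 mg/kg, where Hand2 was -1.10 (0.0865), and 215 for sex. For male against female 64 genes passed after median centring and 639 with array weights, and Hand2 was -0.033 after quantile normalization. With each sample left out in turn, counts ranged from 46 to 249 (both doses), 22 to 470 (20 mg/kg), 456 to 1563 (30 mg/kg), 321 to 2172 (30 against 20 mg/kg), 0 to 181 (sex) and 0 to 8 (difference of within-set changes, 0 with all samples). Over these fits Gata2 with both doses was -0.84 to -0.64, Hand2 for sex -0.20 (without 20 mg/kg sample 9) to 0.53, the within-set difference of change of Phox2a -0.24 to 0.20, and Hand2 against controls 1 to 4 -1.83 to -1.38. The correlation of Phox2a with Gata2 was 0.32 without taking off subgroup means (-0.08 with it), and that of Phox2a with Gata3 -0.14 without the 2 farthest samples (0.29 with them). The causes of these shifts were not tested.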
